A study of Mus musculus with 2 samples.

Results

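Transcription factors of the POU family share a bipartite DNA-binding domain, made of a POU-specific domain and a POU homeodomain joined by a linker, and many of them bind the octamer ATGCAAAT or relatives of it. Class III factors (Pou3f1, Pou3f2, Pou3f3 and Pou3f4, also called Oct6, Brn2, Brn1 and Brn4) act in neural progenitors and in neurons of the developing brain, often beside SOX proteins on shared enhancers. Class IV factors (Pou4f1 and Pou4f2, or Brn3a and Brn3b) act in sensory ganglion neurons, the medial habenula and retinal ganglion cells, Pou2f1 (Oct1) is a widely expressed class II factor, and Pou6f1 (Brn5) is a class VI factor of the nervous system. The 8 genes described here are picked out by a list of symbols that uses no measured value as a criterion, and all 8 were found among the 43346 genes of both deposited gene tables.

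The tissue was central nervous system from mouse embryos of strain C57BL/6J at embryonic day 18, and polyadenylated RNA longer than 200 nt was sequenced. There were 2 libraries, replicate 1 and replicate 2, both from mixed-sex littermates of 1 strain and 1 age, so the data hold 1 group and no contrast of genotype, treatment or time. The labels number them as biological replicates but do not give the number of embryos behind each, nor which regions of the central nervous system were dissected. Levels are the authors' TPM, a scale that allows for gene length as well as depth. Errors after ± are SDs of the 2 libraries (n = 2). In whole tissue, fewer cells of a type and less RNA per cell cannot be told apart.

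The libraries held 93979836 and 137012773 fragments on genes. The general neuron markers were high in both, with Tubb3, a neuronal tubulin, at 2731 and 2430.2 TPM and Stmn2, a growth cone protein, at 1245 and 1252 TPM. Markers of other tissue stood apart in replicate 2: the summed level of 9 skeletal muscle genes was 15.1 TPM in replicate 1 and 664 TPM in replicate 2, and that of 7 bone genes was 45.6 and 279 TPM. None of the 16 genes was listed at 0 in both libraries.

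A stretch of 30 bases that encodes part of the POU-specific domain is shown to let the 8 coding sequences be compared. Of 1309 windows of that length in Pou3f2 it had the most bases shared with the best ungapped match in the other 7 genes, 175 of 210, and the next window that does not overlap it had 172. Capitals mark bases that differ from Pou3f2. The sequences are from GENCODE M21 transcripts and read 5′ to 3′ on the coding strand.
Pou3f2: cagaccaccatctgcaggtttgaggccctg
Pou3f1: cagaccaccatctgcCgTttCgaggccctg
Pou3f3: cagaccacTatctgcCgCttCgaggccctg
Pou3f4: cagacTaccatctgcaggttCgaggccTtA
Pou4f1: cagaGcaccatctgcaggttCgagTcGctC
Pou4f2: cagaGcaccatctgcaggtttgagTcTctC
Pou2f1: caAaccaccatctCTCgCtttgaAgccTtg
Pou6f1: caATcAGccatctgcaggtttgagAAATtg
Within class III, 26 or 27 of the 30 bases were the same as in Pou3f2, and in the class IV genes 25 (Pou4f1) and 26 (Pou4f2). Pou2f1 shared 23 and Pou6f1 22 of the 30. Over whole coding sequences the identity to Pou3f2 was 61.0% for Pou3f1, 62.9% for Pou3f3 and 59.7% for Pou3f4, 51.5% for Pou4f1, 54.4% for Pou4f2, 46.2% for Pou6f1 and 35.9% for Pou2f1, counted over all columns of a global alignment with gaps included. Over aligned bases alone, with gap columns left out, it was 74.8%, 77.3% and 76.4% in class III and 65.1% and 66.6% in class IV. For Pou6f1 it was 67.6% and for Pou2f1 68.4%. Where gaps are placed can still depend on coding length, so these values may not be free of its effect. Pou4f1 and Pou4f2 were 63.4% identical to each other with gaps and 71.5% without.

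All 8 genes reached 1 TPM in each library, against 34.2% of all 43346 genes and 62.9% of 21474 protein-coding genes. Pou6f1 and Pou3f3 led, Pou3f2, Pou3f1 and Pou3f4 followed, and Pou2f1 and the class IV genes were lowest. The 4 class III genes together made up 105 TPM in replicate 1 and 74.6 TPM in replicate 2, while the class IV genes summed to 9.54 and 9.48 TPM.

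**Figure D1:**
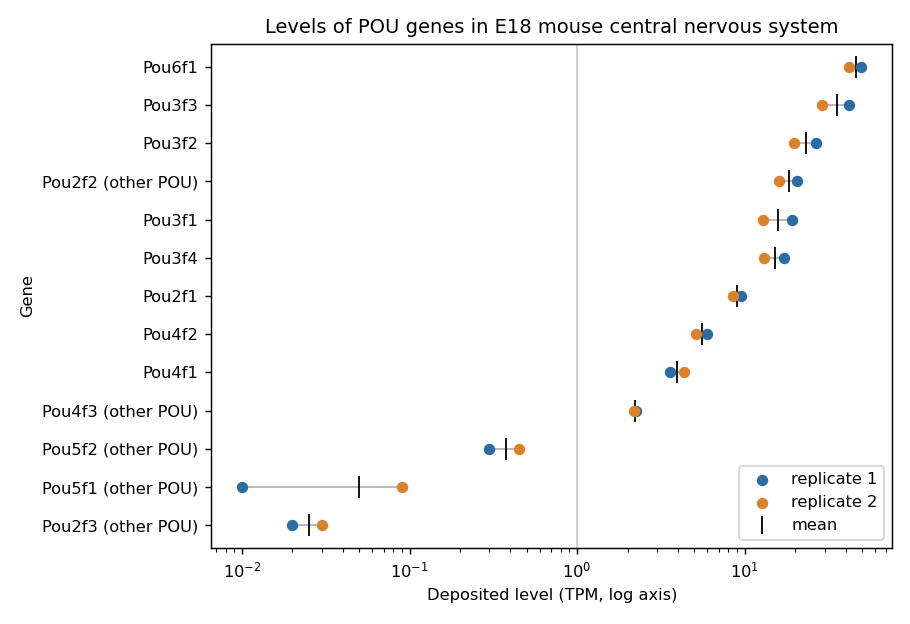
Deposited level (TPM, log axis) of the 8 members and other POU genes named in the text in each of the 2 libraries; points are libraries, black ticks their mean, and the grey line is at 1 TPM. The 8 members lie between 3.60 and 49.8 TPM; Pou1f1, listed at 0 in replicate 1, is not drawn.

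Among the class III genes, Pou3f3 (ENSMUSG00000045515, GRCm38 chromosome 1, 42695768 to 42703176, plus strand), which acts with Pou3f2 in migration and layering of cortical neurons, was highest, at 42.0 TPM in replicate 1 and 29.0 TPM in replicate 2 (35.5 ± 9.20). Pou3f2 (ENSMUSG00000095139, chromosome 4, 22482780 to 22488366, minus strand), also known for its use in turning fibroblasts into neurons, stood at 26.5 and 19.8 TPM (23.1 ± 4.74). The lowest Pou3f3 value, 29.0, lay above the highest Pou3f2 value, 26.5, so these neighbours did not overlap. Pou3f1 (ENSMUSG00000090125, chromosome 4, 124656807 to 124660655, plus strand), best known for its part in Schwann cell myelination, stood at 19.1 and 12.8 TPM (15.9 ± 4.43). Pou3f4 (ENSMUSG00000056854, chromosome X, 110814280 to 110817207, plus strand), the gene of an X-linked deafness, stood at 17.1 and 13.1 TPM (15.1 ± 2.85). Pou3f1 and Pou3f4 overlapped and changed places between the libraries.

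The make-up of class III was close in both libraries. Pou3f3 took 40.1% of the summed class III TPM in replicate 1 and 38.8% in replicate 2, and Pou3f2 took 25.3% and 26.5%. Pou3f1 took 18.2% and 17.2%, and Pou3f4 16.3% and 17.5%. Each of the 4 genes thus moved by less than 2 percentage points as a share, while all 4 were lower in replicate 2 as a level.

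Pou6f1 (ENSMUSG00000009739, chromosome 15, 100575318 to 100599984, minus strand) was the highest member by mean, at 49.8 and 42.1 TPM (46.0 ± 5.44), above 75.0% of the genes detected in both libraries. It was separated from Pou3f3 only by 42.1 against 42.0 TPM, and without the correction for length (CPM) Pou3f3 led with 192 and 137 CPM against 114 and 97.1 CPM for Pou6f1. Pou2f1 (ENSMUSG00000026565, chromosome 1, 165865154 to 166002678, minus strand), which activates histone H2B and small nuclear RNA genes, stood at 9.51 and 8.48 TPM (9.00 ± 0.728), below both Pou3f4 values and above both Pou4f2 values.

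Pou4f2 (ENSMUSG00000031688, chromosome 8, 78433010 to 78436645, minus strand), required by most retinal ganglion cells, stood at 5.94 and 5.14 TPM (5.54 ± 0.566). Pou4f1 (ENSMUSG00000048349, chromosome 14, 104461676 to 104467999, minus strand), a factor of sensory ganglia and the medial habenula, was lowest, at 3.60 and 4.34 TPM (3.97 ± 0.523). Both Pou4f2 values lay above both Pou4f1 values. The lowest member rested on 729 and 1328 fragments.

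Among other POU genes, Pou2f2 (Oct2), known from B cells and also expressed in neurons, stood at 20.5 and 16.1 TPM, within the range of the class III genes and above both Pou2f1 values. Pou4f3, the class IV factor of hair cells, stood at 2.24 and 2.19 TPM, below both Pou4f1 values. Pou5f2 stood at 0.300 and 0.450 TPM. The pituitary factor Pou1f1 had 0 and 1 fragments, the tuft cell factor Pou2f3 had 3 and 5, and the pluripotency factor Pou5f1 (Oct4) had 1 and 4. A count of 0 allows up to 3 fragments, which is 0.0319 CPM in replicate 1 and 0.0219 CPM in replicate 2, for counting error only.

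Between the libraries, all 4 class III genes were lower in replicate 2, by similar amounts, while Pou2f1 was level and Pou4f1 was higher. The ratios below are of fragments scaled by library size and composition (TMM), with a 95% interval that covers counting error only; with 1 library on each side the difference has no replicate check and no test was made. Pou3f1 had a log2 ratio of replicate 2 to replicate 1 of -0.57 (interval -0.63 to -0.51), that is 0.674 times the level in replicate 1. Pou3f3 had -0.53 (-0.56 to -0.50), Pou3f2 -0.42 (-0.46 to -0.37) and Pou3f4 -0.38 (-0.46 to -0.31). Ratios at least as low were uncommon: 2.88% of the 18677 genes tested lay below Pou3f1, 3.28% below Pou3f3, 4.83% below Pou3f2 and 5.63% below Pou3f4.

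Among the other members, Pou6f1 had a log2 ratio of -0.28 (-0.32 to -0.24), lower in replicate 2, and Pou4f2 had -0.20 (-0.32 to -0.09). Pou2f1 had -0.03 (-0.08 to 0.02), or 0.01 when scaled by library totals alone, so no direction can be given for it. Pou4f1 was the 1 member higher in replicate 2, with a log2 ratio of 0.27 (0.14 to 0.41), and 85.7% of genes lay below it; 50.5% of all genes tested were higher by any amount. In all, 7 of 8 members were lower in replicate 2 by any amount, against 49.5% of all genes tested. That count was made after the ratios were seen, and it includes Pou2f1, for which no direction can be given. None of the 8 differed by 2-fold or more, where 0.937% of genes were lower and 2.64% higher by that much. None differed by 1.5-fold either, against 2.73% lower and 6.31% higher. The coefficient of variation that edgeR fitted between the libraries at each gene's level was 8.12% for Pou3f3, 9.24% for Pou3f2, 13.4% for Pou3f1, 14.9% for Pou3f4 and 21.8% for Pou4f1, wider than the counting intervals.

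**Figure D2:**
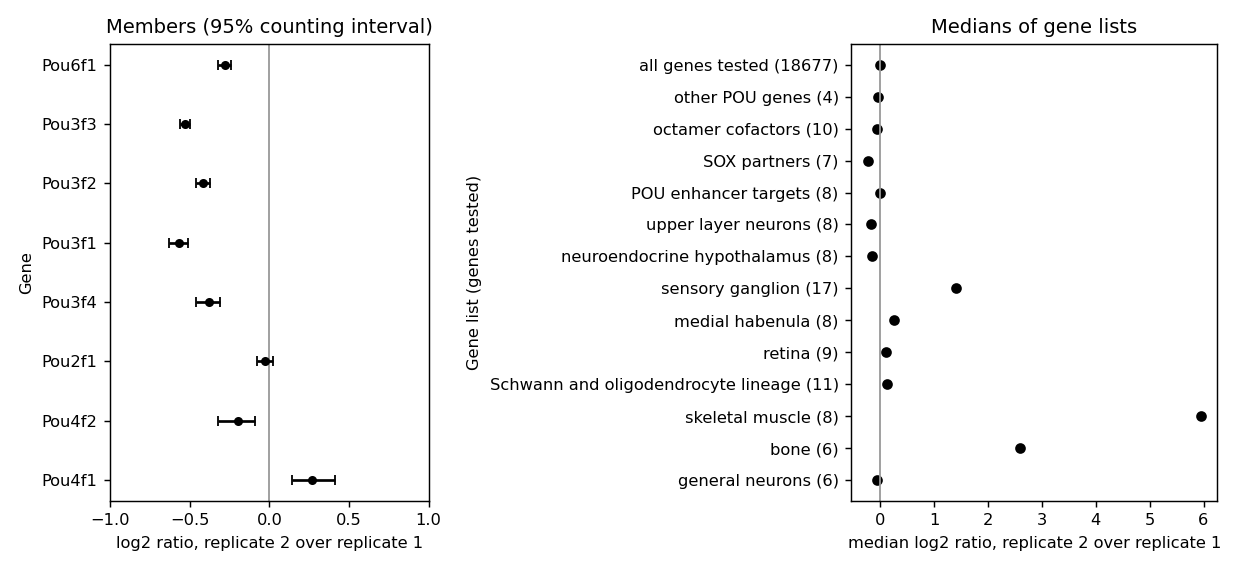
Left, log2 ratio of replicate 2 to replicate 1 for each member, with bars for the 95% counting interval; right, the median log2 ratio of each gene list, with the number of its genes tested in parentheses. The 4 class III genes lie between -0.57 and -0.38, and the skeletal muscle, bone and sensory ganglion lists stand at 5.95, 2.60 and 1.41.

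Gene lists tied to the roles of these factors are given as counts and medians, beside a median log2 ratio of 0.00 over all genes tested and -0.07 over 6 general neuron genes. The 7 SOX genes that can partner class III factors were all above 1 TPM in both libraries, led by Sox4 at 200.3 and 161 TPM, Sox11 at 123 and 96.7 TPM and Sox12 at 52.6 and 44.8 TPM. Of them 6 were lower in replicate 2 and 1, the glial factor Sox10, was higher, with a median log2 ratio of -0.23. All 8 genes of the upper cortical layers, Pou3f2 among them, were lower in replicate 2, with a median of -0.18. Among them were Lhx2 at 89.8 and 86.6 TPM and Cux1 at 55.5 and 47.9 TPM, both homeobox factors.

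Genes whose enhancers are described as bound by POU factors did not share the direction of class III. Of 8 such genes 4 were lower and 4 higher in replicate 2, with a median log2 ratio of -0.01. Fabp7, a radial glia fatty acid binding protein, stood at 1433 and 1603 TPM, Gad1, a GABA synthesis enzyme, at 172 and 132 TPM, and Sox2 at 39.4 and 37.5 TPM. Of 8 genes of hypothalamic neuroendocrine neurons, of which some types depend on Pou3f2, 6 were lower with a median of -0.16. The highest were Sst at 413 and 303 TPM, Arnt2 at 111 and 96.8 TPM and Avp at 48.4 and 31.8 TPM. The list was not limited to genes that depend on Pou3f2. In tissue whose dissected regions are not given, these levels cannot be assigned to the hypothalamus. Octamer cofactors, which serve Pou2f1 at its targets, stood near level with a median of -0.07 over 10 genes, led by the RNA-binding proteins Nono at 241 and 226 TPM and Sfpq at 158 and 145 TPM and by Tbp at 57.6 and 54.6 TPM. Pou2af1, the B cell coactivator, was the 1 gene below 1 TPM, at 0.0900 and 0.140 TPM, and is named after its values were seen.

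Sensory ganglion genes, among whose cells Pou4f1 is expressed, were mostly higher in replicate 2. Of 17 tested, 13 were higher and 10 of them by 2-fold or more, with a median log2 ratio of 1.41. Prph, a peripheral neuron filament, stood at 5.56 and 42.5 TPM, Calca, the CGRP gene, at 2.59 and 10.3 TPM, and P2rx3, an ATP receptor of nociceptors, at 0.960 and 5.64 TPM. Isl2, Avil, Scn10a, Tlx3 and Prrxl1 were also higher by 2-fold or more. The genes of the list with the highest means, Tac1, Ntrk3 and Ntrk2, which the brain and spinal cord also express, were lower in replicate 2. The remaining lower gene of those tested was Isl1, at 38.3 and 24.5 TPM, named after its values were seen. Its log2 ratio was -0.37 (-0.44 to -0.30). Summed over the 18 genes of the list the level was 238 and 271 TPM, and none was at 0 in both libraries. The medial habenula list had 6 of 8 genes higher with a median of 0.26, and the retina list 6 of 9 with a median of 0.11; in the latter Sncg, at 13.4 and 59.8 TPM, and Atoh7, at 1.48 and 3.38 TPM, were higher by 2-fold or more. The part of ganglion, muscle and bone RNA in the ratios of the POU genes was not tested.

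Of the Schwann and oligodendrocyte lineage genes, where Pou3f1 has a known role, 7 of 11 were higher in replicate 2 with a median of 0.13. Gjc3, a glial connexin, stood at 0.790 and 1.74 TPM. Olig1, an oligodendrocyte lineage factor, was the highest of the list at 96.6 and 105 TPM. Pou3f1 itself was lower in replicate 2.

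The bases before the class III genes are shown as a description of sequence. Whether they have a part in the ratios between the libraries was not tested. The table of promoters used held 7 of the 8 members, without Pou3f1. Sequences are from RefSeq on GRCm38.p6, given 5′ to 3′ on the strand of the gene, and capitals mark the letters CCAAT. They lie at chr4:22488367-22488616 (minus strand) for Pou3f2, chr1:42695518-42695767 (plus strand) for Pou3f3 and chrX:110814129-110814279 (plus strand) for Pou3f4, where the part that GENCODE assigns to the first exon is left out.
Pou3f2 promoter: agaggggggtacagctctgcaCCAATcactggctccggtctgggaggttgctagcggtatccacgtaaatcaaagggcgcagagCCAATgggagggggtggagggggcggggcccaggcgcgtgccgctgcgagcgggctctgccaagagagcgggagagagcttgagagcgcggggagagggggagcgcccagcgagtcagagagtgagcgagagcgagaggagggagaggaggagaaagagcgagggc
Pou3f3 promoter: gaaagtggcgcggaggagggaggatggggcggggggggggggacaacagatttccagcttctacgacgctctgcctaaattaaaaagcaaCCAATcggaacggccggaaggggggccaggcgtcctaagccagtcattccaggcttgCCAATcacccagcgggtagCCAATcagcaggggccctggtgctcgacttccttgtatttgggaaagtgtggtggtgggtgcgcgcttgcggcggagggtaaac
Pou3f4 promoter: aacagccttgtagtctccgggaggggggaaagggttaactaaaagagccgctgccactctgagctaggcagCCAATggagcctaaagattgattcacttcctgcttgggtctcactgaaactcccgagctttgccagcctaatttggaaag
The 250 bases before the RefSeq start held CCAAT 2 times in Pou3f2, at 229 and 166 bases before it, and 3 times in Pou3f3, at 160, 103 and 84 bases. Pou3f4 held it 3 times, at 179 bases and, on the other strand, at 76 and 35 bases; the latter 2 lie in the part left out above, which is within the gene as GENCODE places it. The other 4 members in the table held none. They were Pou6f1 and Pou4f2, also lower in replicate 2, Pou2f1, which was level, and Pou4f1, which was higher. The motif was chosen after the sequences were read, and of 32851 RefSeq promoters 33.8% held it at least once on either strand, 10.1% at least 2 times and 2.79% at least 3 times.

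The octamer ATGCAAAT, which POU factors bind, was in none of the 7 member promoters on either strand, against 1.60% of all promoters. With 1 mismatch allowed it was in 1 of the 7, that of Pou6f1, against 16.6% of all promoters. The match lies at 139 bases before the start on the other strand, in capitals below, and the stretch is chr15:100599985-100600234 (minus strand).
Pou6f1 promoter: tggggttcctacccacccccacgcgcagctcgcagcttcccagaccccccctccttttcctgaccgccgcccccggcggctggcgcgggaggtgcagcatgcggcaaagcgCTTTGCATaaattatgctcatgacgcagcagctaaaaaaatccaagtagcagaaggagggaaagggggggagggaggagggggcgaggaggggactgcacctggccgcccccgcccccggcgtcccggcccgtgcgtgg
A match is a description of letters and not a bound site.

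Several members have transcribed neighbours. Pantr1 is a long intergenic noncoding RNA on the opposite strand whose start lies 926 bases upstream of that of Pou3f3. It stood at 205 and 189 TPM, above every member in that unit. By fragments, which do not correct for length, it had 3498 and 4006, fewer than Pou3f3 with 18046 and 18832. Pou3f4 had fewer, 2779 and 3214, so the rank of Pantr1 turns on the unit. The log2 ratio of replicate 2 to replicate 1 was -0.40 (-0.46 to -0.33) for Pantr1, beside -0.53 for Pou3f3. Pantr2, on the opposite strand and downstream, stood at 10.7 and 9.36 TPM. AC122898.1, which overlaps Pou3f3 on the same strand, stood at 1.79 and 1.48 TPM, and how reads were shared between it and Pou3f3 is uncertain.

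Around Pou3f1, 6 of 13 annotated genes within 100 kb of the start had a mean of 1 TPM or more. The antisense gene Gm2164 overlaps its first bases and stood at 2.11 and 2.25 TPM, while the farther genes Sf3a3, a splicing factor, and Inpp5b, a lipid phosphatase, stood at 45.7 and 44.4 TPM and at 35.0 and 34.3 TPM. Utp11 stood at 21.8 and 22.2 TPM, Fhl3 at 2.02 and 2.16 TPM, and the pseudogene Gm12917 at 1.69 and 0.930 TPM. Beside Pou3f2 the 1 such gene was Fbxl4, at 13.2 and 15.8 TPM. Near Pou6f1 they were Dazap2 (104 and 99.3 TPM), Tfcp2 (15.0 and 14.4 TPM), Smagp (3.12 and 2.72 TPM) and C330013E15Rik (1.39 and 1.82 TPM). Near Pou4f2 they were Rbmxl1 (97.8 and 94.6 TPM) and Slc10a7 (5.04 and 5.56 TPM), and near Pou4f1 Rnf219 (10.4 and 9.84 TPM). None of the 5 genes near Pou2f1 reached 1 TPM, and no other gene of the tables lay within that distance of Pou3f4.

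A second set of deposited values, on mm9 with Ensembl gene models, was read for 7 of the 8 members; Pou3f2, whose current gene ID had no match there, was not analysed in it. Which library each of its 2 replicate columns holds is not stated, and they are called R1 and R2. By RPKM, a level per length, Pou3f3 led with 9.74 and 6.91, followed by Pou6f1 with 4.91 and 4.05, and Pou4f1 was lowest with 0.610 and 0.724. Of 21 pairs of members, 19 stood in the same order as by TPM. The gene models differ: Pou3f3 spans 3062 nt in this annotation and 7409 nt in GENCODE M21.

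The mm9 contigs, stretches of continuous signal called by the authors, ran well past the gene models of the 3 class III genes read there. The contig over Pou3f3 was 15786 nt long at a deposited level of 8.72 and ended 11141 nt past the gene's end. Over Pou3f1 it was 8150 nt long at a level of 3.67 and ended 5028 nt past, and over Pou3f4 it was 3887 nt long at a level of 7.01 and ended 2557 nt past. Over Pou4f2 it ended 204 nt past, at a level of 2.25, and the highest contigs of Pou6f1 and Pou2f1 ended 12 and 38 nt past. At Pou4f1 a contig of 4153 nt at a level of 1.06 ended 2285 nt past, so such runs were not particular to class III. The Ensembl models span 1182 nt at Pou3f4 and 3011 nt at Pou3f1, against 2928 and 3849 nt in GENCODE M21. At Pou4f2 the spans are 3644 and 3636 nt. The distances past the end thus depend on the gene model. The median level of all 858138 contigs was 0.0530.

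On the opposite strand, a contig of 1314 nt at a level of 0.808 lay just upstream of Pou3f1, and a contig of 2145 nt at a level of 1.35 lay upstream of Pou3f3. At Pou3f4 a contig of 5480 nt at a level of 0.243 covered the whole gene on the opposite strand, far below the 7.01 of its own strand. Contigs on the opposite strand overlapped 4 of 7 members at an irreproducibility score of at most 0.1, namely Pou3f4, Pou4f1, Pou6f1 and Pou2f1; that in Pou4f1 was 25 nt long.

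**Figure D3:**
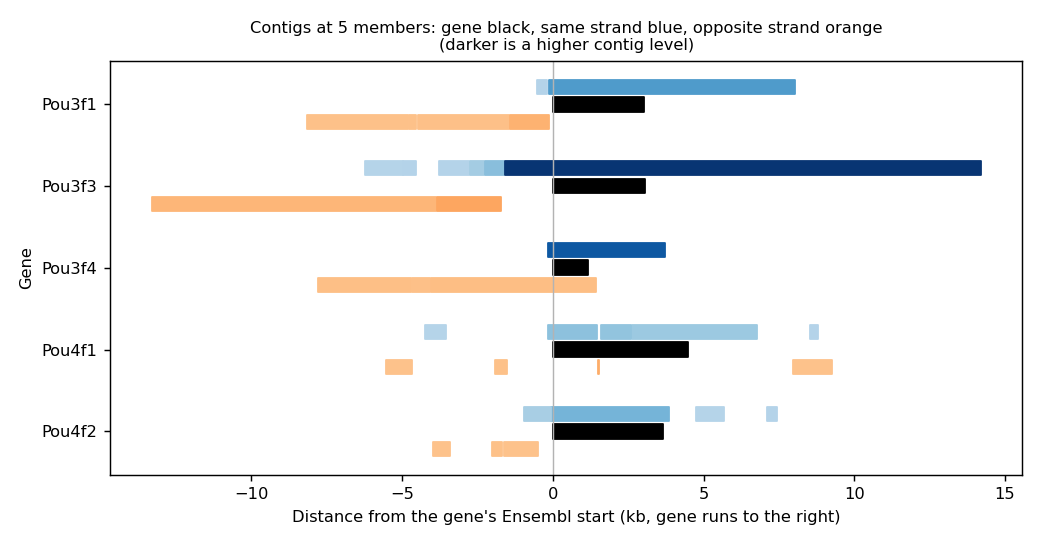
Contigs within 5000 nt of 5 members on mm9, drawn by distance from the gene's Ensembl start in kb, with the gene in black, contigs of its own strand in blue above it and of the opposite strand in orange below it, darker for a higher level. The contig over Pou3f3 runs 11141 nt past the gene's end, and that over Pou4f2 204 nt.

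The class III genes and Pou4f2 have 1 transcript each in the tables, so isoforms could be compared in Pou6f1, Pou2f1 and Pou4f1. In Pou6f1 the leading entry was not a coding one. Pou6f1-208, annotated as a retained intron, held 35.8% of the gene's transcript TPM in replicate 1 and 42.9% in replicate 2. The coding transcripts Pou6f1-202 and Pou6f1-204 held 23.2% and 18.4%, and 20.8% and 18.3%. Pou6f1-207, a processed transcript of 764 nt, held 15.5% and 15.4% of TPM but 2.45% of the mean expected counts. All coding transcripts together held 44.0% and 36.7%.

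In Pou2f1 the long coding transcript Pou2f1-208 led with 59.2% and 66.8%, and Pou2f1-205 followed with 9.88% and 10.1%. In Pou4f1 the coding transcript Pou4f1-201 held 76.7% and 76.5%, and the short processed transcript Pou4f1-202 held 23.3% and 23.5%. By expected counts, which do not correct for length, Pou4f1-202 held 4.14% on average. The leading transcript of each of these 3 genes was the same in both libraries and by expected counts.

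**Figure D4:**
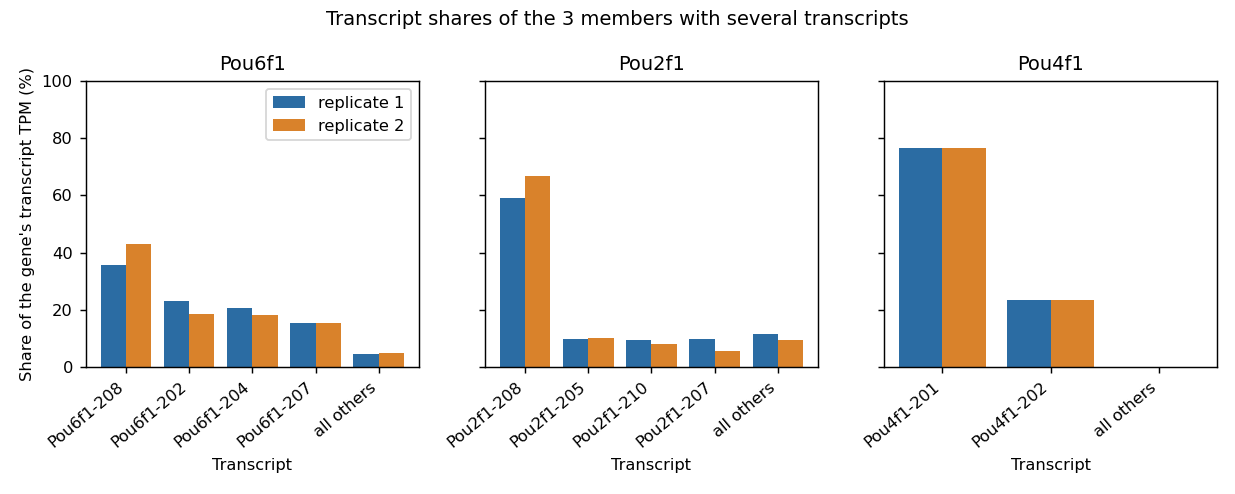
Share of each gene's transcript TPM (%) by transcript in replicate 1 and replicate 2, for Pou6f1, Pou2f1 and Pou4f1; transcripts under 5% on average are summed as others. Pou6f1-208 leads in Pou6f1 with 35.8% and 42.9%, and Pou2f1-208 in Pou2f1 with 59.2% and 66.8%.

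Junction reads on mm9 give a view of splicing that does not pass through transcript estimates. A coding exon of Pou2f1 of 72 nt, which keeps the reading frame, is shown because the sources differ on it. It is exon 14 of 17 of Pou2f1-208, at chr1:165883047-165883118 on GRCm38 (minus strand), and mm9 167813178 to 167813249 in the same transcript, with its sequence from GENCODE M21.
Pou2f1 exon 14: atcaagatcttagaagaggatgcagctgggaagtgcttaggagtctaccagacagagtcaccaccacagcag
The junction into it had 38 reads, the junction out of it 85, and the junction that skips it had 130. With the mean of the inclusion junctions, this gives an inclusion of 32.1%. The Clopper-Pearson 95% interval on that mean, rounded, is 25.7% to 39.4%. R1 gave 32.7% and R2 31.5%. Taken alone, the junction into it gave 22.6% (16.5% to 29.7%) and the junction out of it 39.5% (33.0% to 46.4%). All intervals cover counting error only, and that of the mean leaves out this difference between the junctions. In the transcript tables, by contrast, the 3 transcripts that contain the exon held 69.1% of the Pou2f1 TPM in replicate 1 and 76.9% in replicate 2, and the 9 that skip it held 27.8% and 17.5%. The cause of this gap was not tested. At the 5′ end of Pou2f1, the distal first exon took 114 of 137 reads into the shared acceptor (83.2%, interval 75.9% to 89.0%), and the alternative first exon 23.

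Pou6f1 had 5456 junction reads, and 3 of its donors joined more than 1 acceptor at 20 or more reads each. The clearest was a pair of acceptors 5 nt apart, at which 655 of 684 reads (95.8%, interval 94.0% to 97.1%) used the one that makes the exon longer. The exon is shown in its long form of 122 nt, exon 3 of Pou6f1-206 at chr15:100587789-100587910 on GRCm38 (minus strand), with the extra 5 bases in capitals.
Pou6f1 exon 3: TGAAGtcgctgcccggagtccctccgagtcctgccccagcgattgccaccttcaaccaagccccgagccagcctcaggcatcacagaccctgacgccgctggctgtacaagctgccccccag
The extra bases are not a multiple of 3, and Pou6f1-206 is annotated as a target of nonsense-mediated decay, whereas the coding transcript Pou6f1-202 has the short form of 117 nt. Transcripts with the long form held 19.5% and 19.4% of the Pou6f1 TPM and Pou6f1-202 23.2% and 18.4%, while entries with neither form in the annotation held 57.1% and 62.2%. By expected counts the long form held 5.27% and 5.39% and Pou6f1-202 30.6% and 25.0%, so this comparison turns on the unit. A further 2 transcripts, the coding Pou6f1-201 among them, use the long acceptor with another exon end and held 0.141% and 0.119% of TPM. Of the junction reads 4.24% used the short acceptor. A pair of acceptors 3 nt apart was used at 463 and 155 of 618 reads, 74.9% (71.3% to 78.3%) for the annotated one, and a pair 97 nt apart at 498 and 174 of 672 reads, 74.1% (70.6% to 77.4%) for the annotated one. R1 and R2 differed by less than 6 percentage points at each of these pairs.

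**Figure D5:**
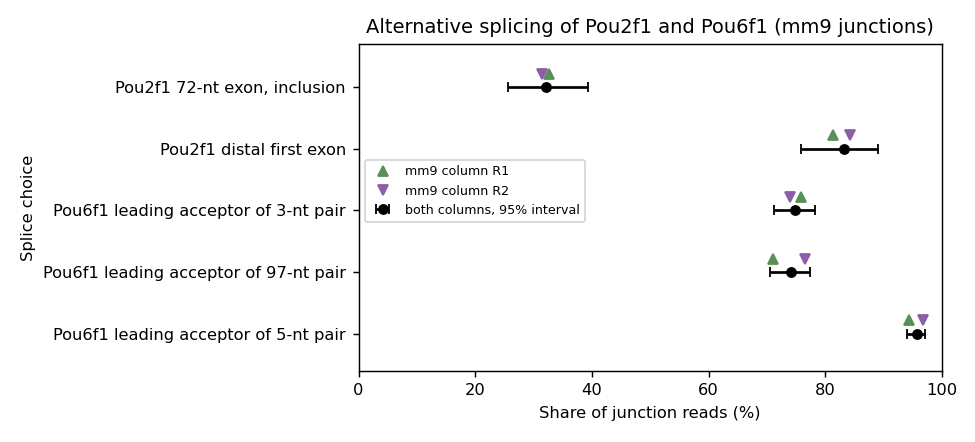
Share of mm9 junction reads (%) for 1 cassette exon, 1 first exon and 3 acceptor pairs, with the 95% Clopper-Pearson interval over both columns in black and R1 and R2 as triangles. The Pou2f1 exon is included in 32.1%, from the mean of its inclusion junctions, and the longer exon of the Pou6f1 pair 5 nt apart in 95.8%.

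Splicing of the class IV genes was simple. The first intron of Pou4f1 had 352 reads, and the annotated alternatives farther along had 8 and 4. The single intron of Pou4f2 had 54 reads. No junction of at least 20 reads lay within Pou3f1, Pou3f3 or Pou3f4.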

How the data were processed

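PolyA RNA-seq libraries with paired 101 nt reads were used. For each library the authors deposited gene and transcript tables on mm10 with GENCODE M4, per the read-me texts, in expected counts, TPM and FPKM. The authors' deposited percent per transcript is its share of the gene's TPM, and the shares here were computed from the TPM. For aligner and quantifier the sources used here give no name. Entries that are no gene, 3.62% and 4.01% of all counts, were left out. Symbols and GRCm38 positions came from GENCODE M21. On mm9 the authors deposited RPKM values, junction read counts, contig signal levels and irreproducibility scores, per the file headers; no coordinates were converted. Ensembl genes, listed on 2 lines each, were used once.

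Expected counts were rounded and scaled with edgeR 4.0.16 (TMM, filterByExpr, prior count 1), leaving 18677 genes. Alternatives were DESeq2 1.42.0 size factors, TPM pseudocounts, other filters and leaving out each replicate. On data simulated over 43346 genes without changed genes, the spread that edgeR estimated was 9.96% where 10% was simulated; an earlier run that held 200 changed genes gave a higher value and was replaced. Junction shares needed 20 reads and carry exact intervals, that of the Pou2f1 exon on the rounded mean of its inclusion junctions. R 4.3.3, Python 3.11.15, pandas 2.3.3, SciPy 1.17.1 and matplotlib 3.10.9 were used.

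The list of member symbols and the 13 gene lists were drawn up with earlier results of these data known, although no value is part of the rule. The rule for named genes takes POU genes, the 3 highest of a list and its genes past 2-fold at a mean TPM of 1, neighbours within 100 kb at a mean TPM of 1, and transcripts of 10% or more. A few list genes are counted in sums and medians without a value of their own being given. Lists of other tissue are given mainly as counts, sums and medians.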

Additional observations from a re-analysis of the deposited data

How the results depend on the processing

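No paired analysis was possible because both libraries form 1 group. Of 143 alternative values for 50 results, 120 were labelled the same as the reported value, 23 moved and 0 reversed. For levels and isoform shares, the same meant within the SD. With 2 libraries, leaving out either one meets this by arithmetic, apart from rounding. For counts, it meant within a set factor and not within an error. The tally therefore does not measure how firm the results are. Sign changes within the error are not counted as reversed. These were Pou2f1, from -0.03 to 0.01, and the median of the POU enhancer targets, from -0.01 to 0.04, both under library total scaling. The summed level of the 8 members was 154 TPM and became 183 TPM when TPM was rescaled over nuclear genes; leaving out a replicate gave 135 to 173 TPM. With 1 mismatch allowed the octamer was in 1 member promoter and not 0, and the CCAAT box, added after seeing the data, was in 3. Detection of members gave 8 genes, or 7 at a TPM minimum of 5. The order of members kept 25 of 28 pairs by CPM. Shares of short transcripts depended on the unit, as Pou6f1-207 fell from 15.4% of TPM to 2.45% of expected counts. The median log2 ratio of the members was -0.33, and -0.28 to -0.33 under other scalings. A single group of 2 libraries limits what can be compared: an exact sign-flip test over 2 libraries cannot go below p = 0.5.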
